A study of Mus musculus with 12 samples.

Results

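Class 3 semaphorins are secreted guidance proteins, and plexins are the cell surface receptors through which they signal. The genes described here are 6 class 3 semaphorins (Sema3a, Sema3c, Sema3d, Sema3e, Sema3f and Sema3g) and 2 plexins (Plxna2 and Plxnd1), 8 of the 16593 genes named on the array. Every probe that the platform annotation gives to one of these symbols was taken, which came to 10 probes: 3 for Sema3f and 1 for each of the others. The cells were wild type CCE embryonic stem cells of mouse strain 129/Sv, a single male line, differentiated for 4 days as embryoid bodies, sorted for Flk1 and cultured on collagen type IV for 4 days more before CD31 positive cells were sorted for RNA. The 4 groups of 3 bead arrays were hypoxia (1.5 to 2% oxygen) with 4 µmol/l of the gamma-secretase inhibitor L-685.458, hypoxia without it, normoxia (21% oxygen) with the same dose of the inhibitor, and normoxia without it. The labels call the cultures biological triplicates, all from this one line. Gamma-secretase is the protease that releases the active part of Notch receptors.

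Class 3 semaphorins act on endothelial cells and growing axons mostly by repulsion. Most of them bind neuropilins, Nrp1 or Nrp2, which have no signalling domain of their own and pair with a plexin of the A family or with Plxnd1. Plexins then inactivate small GTPases of the Ras and Rap type and loosen integrin adhesion. Sema3e is the exception, since it binds Plxnd1 without a neuropilin. Nrp1 is also a co-receptor of Vegfa, so the same cell surface protein serves repulsive and angiogenic ligands.

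Of the members, Sema3g rose in hypoxia, to 2.38-fold its normalized signal in normoxia without the inhibitor, where 2 of 3 normoxia arrays detected it. That call was close to the threshold and held in 10 of 23 other settings. The change averaged over the inhibitor passed in 22 of 22. Both probes of Sema3f that could be tested were higher in hypoxia on all 3 arrays without the inhibitor, but passed the test only in the settings that left out the third array of hypoxia with inhibitor, alone or with the other replicate 3 arrays. The changes of Sema3a, Sema3d, Plxna2 and Plxnd1 did not pass the test. Sema3c and Sema3e were not detected on any array. No member passed the test for the inhibitor with all arrays in the fit. Within a single oxygen level no probe on the array did.

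The arrays detected 13085 to 13901 probes each, and the third replicate stood apart from the other arrays. On the first principal component (27.4% of the variance) the replicate 3 arrays scored 16.6 to 28.7. Replicates 1 and 2 scored -1.25 to 3.79 in the hypoxia groups and -22.6 to -20.5 in the normoxia groups, so among them the component also separated the oxygen levels. Where a call or a sign of a member changed without the replicate 3 arrays, the value without them is given beside it. Of the other genes only Sema7a, Nrp1, Rnd2, Limk2, Egln3 and Hey1 were rerun without them. Other genes, such as Nrarp, Slc16a3, Vegfa and the cell type markers, were not checked in this way. Of the endothelial markers, 14 of 15 are on the array and all 14 were measured. Erg was detected on 11 of the 12 arrays and the other measured ones on all 12. Their summed signal was 71700 to 88100 in hypoxia with inhibitor, 85800 to 108000 in hypoxia, 74500 to 101000 in normoxia with inhibitor and 83700 to 105000 in normoxia. Pluripotency markers (8 of 10 tested) were also detected. Their summed signal was 1730 to 6590 in hypoxia with inhibitor, 8330 to 9780 in hypoxia, 2670 to 19400 in normoxia with inhibitor and 9630 to 22500 in normoxia, and 0 of the 8 had a positive change in any comparison of 2 groups, none past the test (limma). In these sorted populations fewer cells of a type and less RNA per cell cannot be told apart. The part of these markers in the results below was not tested. Markers of other cell types were detected as well. The mural and smooth muscle list (5 of 8 tested) had a summed signal of 45800 to 69700 over the 4 groups. Its Acta2 had a log2 signal of 15.46 to 16.06 on the 12 arrays. The haematopoietic list (9 of 10 tested) had a summed signal of 7700 to 11500. Their part in the results below was not tested either. Of the genes past the test, the haematopoietic list held Laptm5, which was higher in hypoxia with and without the inhibitor, and Hba-x, lower without it. Averaged over the inhibitor, the mesenchymal list held Col1a2, higher, the neural list Stmn2, lower, and the haematopoietic list also Hba-a1, lower (limma). Of the 8 neural markers, which bear on genes best known from axons, 5 were not detected in any group and 3 were tested. Nes (log2 signal 10.79 to 11.48) and Stmn2 (6.08 to 7.39) were detected on all 12 arrays, and Map2 on 7. The summed neural signal was 1850 to 2980 over the 4 groups. The low oxygen itself was visible in Egln3, an oxygen-regulated hydroxylase, which was higher in hypoxia than in normoxia by 2.11 with the inhibitor (SE 0.12, limma adjusted p = 1.98e-05) and by 2.15 without it (SE 0.12, adjusted p = 1.61e-05) on the log2 scale. Slc16a3, a lactate exporter, was at least 3.02-fold higher in hypoxia than in normoxia with the inhibitor (adjusted p = 0.0388) and at least 4.15-fold higher without it (adjusted p = 0.017). Nrarp, a Notch target, was higher in hypoxia by 1.13 on average (SE 0.27, adjusted p = 0.0356). Its change with the inhibitor did not pass the test. In normoxia that change was -0.34 (SE 0.39, interval -1.18 to 0.51). In hypoxia its log2 signal averaged 10.12 with inhibitor and 10.79 without it. Hey1, another Notch target, fell by 2.06 with the inhibitor averaged over both oxygen levels (SE 0.21, adjusted p = 0.00799), a call that held in 20 of 22 other settings and was lost with the replicate block (adjusted p = 0.079) and on leaving out hypoxia with inhibitor 1.

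The promoters of Sema3g and Sema3c are shown as examples. Sema3g is the member that rose in hypoxia, and Sema3c, like Sema3e, was never detected. Both promoters shown are the 250 bases before the transcription start in RefSeq on build GRCm38.p6, plus strand. They lie at chr14:31217623-31217872 for Sema3g and at chr5:17574566-17574815 for Sema3c. Capitals mark ACGTG and GCGTG, the core letters of hypoxia response elements, read on both strands.

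Sema3g: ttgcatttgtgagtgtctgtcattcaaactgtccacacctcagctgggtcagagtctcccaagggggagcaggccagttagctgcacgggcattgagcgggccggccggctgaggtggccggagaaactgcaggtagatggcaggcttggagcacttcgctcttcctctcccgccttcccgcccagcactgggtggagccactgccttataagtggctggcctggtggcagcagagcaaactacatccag

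Sema3c: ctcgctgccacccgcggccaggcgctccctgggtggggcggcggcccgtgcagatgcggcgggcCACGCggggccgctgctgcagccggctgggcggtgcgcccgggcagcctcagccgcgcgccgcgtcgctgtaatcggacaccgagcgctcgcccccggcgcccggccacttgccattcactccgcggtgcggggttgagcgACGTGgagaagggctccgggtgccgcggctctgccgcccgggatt

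No capital letters stand in the Sema3g window, and the Sema3c window holds 1 match to ACGTG and 1 to GCGTG, which is read on the opposite strand and so appears as CACGC. Among the 32851 promoters of the table, 16.6% hold ACGTG, 28.2% hold GCGTG and 38.6% hold one or the other. The core letters of sites for RBPJ, the DNA-binding partner of Notch, searched as TGGGAA on both strands, stand in 21.6% of the promoters and in 0 of the 7 members found in the table. The windows of Plxna2 and Plxnd1 hold 1 and 4 matches to GCGTG, and those of Sema3a, Sema3d and Sema3e hold none of these letters. These matches describe the letters in the windows and show no binding. The Sema3a window (13396534 to 13396783) lies inside the gene, which spans 13124822 to 13603485 with 7 transcripts, and not at its outer start. The Plxnd1 window (115995006 to 115995255, minus strand) likewise lies inside the gene, which ends at 115995339. Sema3g lies on chromosome 14 (31217873 to 31230352), Sema3f on chromosome 9 (107681499 to 107710475), Plxna2 on chromosome 1 (194619791 to 194816869) and Plxnd1 on chromosome 6 (115954811 to 115995339). The other 4 members, Sema3a, Sema3c, Sema3d and Sema3e, all lie on chromosome 5 between 12383161 and 17730268.

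Of the 10 probes, 7 (6 genes) were detected on at least 3 of the 12 arrays, with a detection p under 0.05, and were tested. Sema3d passed with exactly 3 detected arrays, 2 of them in hypoxia, and Sema3g with 7. Only 5 probes, for 4 genes (Sema3a, Sema3f, Plxna2 and Plxnd1), were detected on all 12 arrays. In the following, an intensity is the deposited background-subtracted signal and a log2 signal is the normalized value that was tested.

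**Figure D1:**
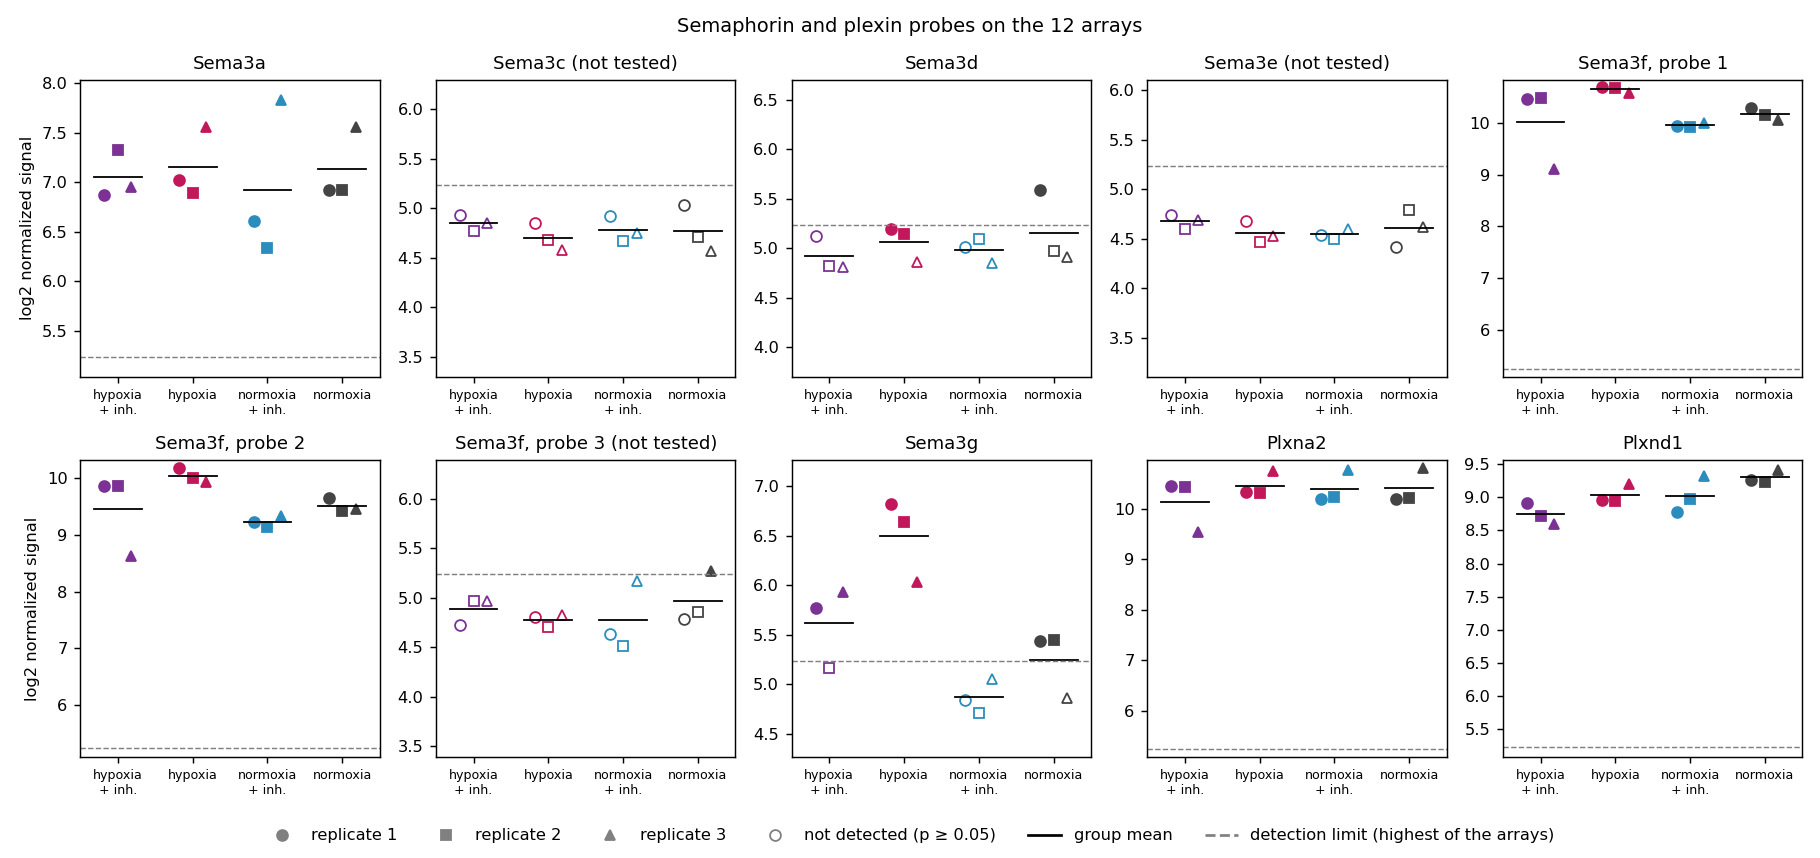
Log2 normalized signal of the 10 probes (vertical axis) on the 12 arrays, in hypoxia with inhibitor, hypoxia, normoxia with inhibitor and normoxia, with the group mean as a bar; open symbols were not detected and the dashed line is the highest of the arrays' own detection limits. Sema3g stands highest in hypoxia, and the third array of hypoxia with inhibitor lies far below the other 2 of its group for both tested Sema3f probes and for Plxna2.

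Sema3g is a ligand made by endothelial cells, in the mouse mainly by those of arteries, and acts through Nrp2. Its intensity was 41.1, 20.4 and 42.1 on the 3 arrays of hypoxia with inhibitor and 101, 86.3 and 42.3 in hypoxia. It was 11, 5.27 and 13.2 in normoxia with inhibitor and 30.9, 29.7 and 7.92 in normoxia. The probe was detected on 2, 3, 0 and 2 of the 3 arrays of these groups, so that the only group without a detected array was normoxia with inhibitor. Without the inhibitor the lowest hypoxia array lay above the highest normoxia array, and the same held with the inhibitor. The order of the group means was hypoxia, hypoxia with inhibitor, normoxia, normoxia with inhibitor, but hypoxia with inhibitor and normoxia overlapped, as did the normoxia groups.

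The log2 signal of Sema3g averaged 6.50 ± 0.41 in hypoxia and 5.25 ± 0.33 in normoxia (SD, n = 3 each), a change of 1.25 (SE 0.25, 95% interval 0.70 to 1.80, limma adjusted p = 0.04), or 2.38-fold. It was the single member called among 7 tested, where 1.01% of all 14599 probes were called. With inhibitor in both groups the means were 5.62 ± 0.41 in hypoxia and 4.87 ± 0.17 in normoxia, a change of 0.75 (SE 0.25, interval 0.21 to 1.30, adjusted p = 0.242). Since no array of normoxia with inhibitor detected the probe, the difference of means is at least 1.37-fold when set against the detection limit. This is no lower limit of the interval, and the probe was detected on 2 of the 3 arrays of hypoxia with inhibitor. No member was called in this comparison with inhibitor, where 0.856% of all probes were, and 1 of the 7 had an unadjusted p under 0.05 against 11.7% of all probes. Same-numbered arrays differed by 1.39, 1.20 and 1.17 without the inhibitor and by 0.93, 0.45 and 0.88 with it, so hypoxia was higher in 6 of 6. Averaged over the inhibitor the change was 1.00 (SE 0.18, interval 0.62 to 1.39, adjusted p = 0.00794), again the only member called of 7 against 5.3% of all probes. The normoxia side of this average includes the 3 arrays of normoxia with inhibitor that did not detect the probe, so it is a difference of fitted signals and gives no exact fold. The oxygen effect did not differ past the test between cells with and without inhibitor (interaction -0.50, SE 0.35, interval -1.27 to 0.28, adjusted p = 1).

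The Sema3g call without the inhibitor was close to the threshold and held in 10 of 23 other settings, with changes of 0.79 to 1.69 over all 23. It was lost on leaving out hypoxia 1 (1.09, adjusted p = 0.168), hypoxia 2 (1.18, adjusted p = 0.172), normoxia 1 (1.34, adjusted p = 0.108), normoxia 2 (1.35, adjusted p = 0.102) or normoxia 3 (1.06, adjusted p = 0.112). It was also lost, with the change itself at 1.25, on leaving out an array of the other groups: hypoxia with inhibitor 1 (adjusted p = 0.0605), normoxia with inhibitor 1 (adjusted p = 0.0646) or normoxia with inhibitor 2 (adjusted p = 0.0634). With all replicate 3 arrays left out the change was 1.29 (adjusted p = 0.00767). The change averaged over the inhibitor stayed past the test in 22 of 22 other settings, with values of 0.60 to 1.35 and adjusted p of 0.0024 to 0.0277. The lowest of these came from a larger offset, which shrinks the changes of dim probes.

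Sema3f is a ligand that signals through Nrp2 with a plexin of the A family and is known for repelling endothelial and tumour cells. The intensity of the first probe was 1500, 1500 and 520 in hypoxia with inhibitor and 1670, 1580 and 1360 in hypoxia. It was 1040, 928 and 994 in normoxia with inhibitor and 1310, 1170 and 949 in normoxia. The second probe gave 979, 972 and 371 in hypoxia with inhibitor, 1160, 982 and 856 in hypoxia, 626, 535 and 604 in normoxia with inhibitor and 835, 699 and 608 in normoxia. Both probes thus had the third array of hypoxia with inhibitor as their lowest of all 12, and moved together (Pearson r = 0.98 over 12 arrays of 1 gene, a description). The third Sema3f probe was detected on 1 array, at -3.96 to 18.3 over all arrays, and was not tested, so the probes of this gene disagree on whether it is measured.

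Without the inhibitor the hypoxia arrays of Sema3f did not overlap with the normoxia arrays in log2 signal for either tested probe. The first probe averaged 10.65 ± 0.05 in hypoxia and 10.17 ± 0.12 in normoxia, a change of 0.48 (SE 0.29, limma adjusted p = 0.574). The second probe averaged 10.03 ± 0.12 in hypoxia and 9.51 ± 0.12 in normoxia, a change of 0.52 (SE 0.26, adjusted p = 0.483). With inhibitor the changes were 0.06 (SE 0.29, adjusted p = 0.96) and 0.21 (SE 0.26, adjusted p = 0.816), and the groups overlapped. Same-numbered arrays with inhibitor differed by 0.52, 0.56 and -0.90 for the first probe and by 0.63, 0.72 and -0.71 for the second, so the third array alone went the other way.

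The Sema3f calls differed with and without that array, which also enters the shared spread of the fit for the comparison without inhibitor. With hypoxia with inhibitor 3 left out, the changes without inhibitor were still 0.48 (limma adjusted p = 0.0286) and 0.52 (adjusted p = 0.0357). With only the hypoxia and normoxia arrays without inhibitor in the fit, which also leaves that array out, neither passed (adjusted p = 0.117 and 0.118). Without hypoxia with inhibitor 3, the changes with inhibitor became 0.52 (adjusted p = 0.0372) and 0.62 (adjusted p = 0.0317), from the other 2 arrays against 3. Averaged over the inhibitor, the first probe moved to 0.50 (adjusted p = 0.00229) against 0.27 (adjusted p = 0.512) with all arrays, and the second to 0.57 (adjusted p = 0.00234) against 0.37 (adjusted p = 0.309). With all replicate 3 arrays left out, both probes were likewise past the test in hypoxia with inhibitor (0.54 and 0.67, adjusted p = 0.011 and 0.0115), in hypoxia without it (0.45 and 0.54, adjusted p = 0.0255 and 0.0298) and on average (0.50 and 0.61, adjusted p = 0.00207 and 0.00226). That array also had the lowest summed pluripotency signal (1730) and the lowest summed endothelial signal (71700) of the 12, and the highest summed mesenchymal signal (3790). The part of these in its Sema3f signal was not tested.

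**Figure D2:**
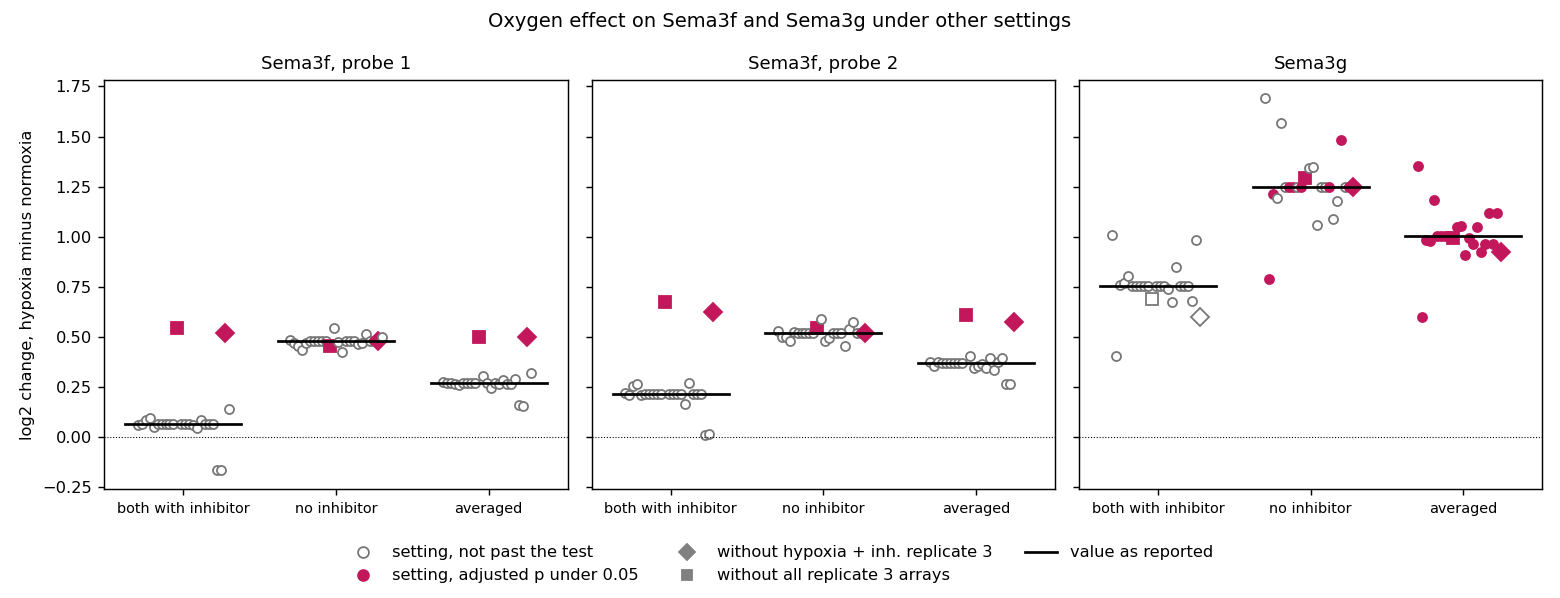
Change of both tested Sema3f probes and of Sema3g between hypoxia and normoxia (vertical axis, log2) under each other setting, with the inhibitor, without it and averaged; filled symbols are past the test, diamonds leave out hypoxia with inhibitor 3, squares leave out all replicate 3 arrays and bars are the values as reported. The Sema3f symbols are filled only in the settings without hypoxia with inhibitor 3 or without all replicate 3 arrays, and the Sema3g symbols all lie above 0.

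Sema3a is the founding repellent of the class and works through Nrp1 and plexins of the A family. Its intensity was 109, 153 and 103 in hypoxia with inhibitor, 117, 106 and 151 in hypoxia, 89.4, 65.9 and 200 in normoxia with inhibitor and 115, 113 and 149 in normoxia. All 4 groups overlapped, and the third array was the brightest of its group in every group but hypoxia with inhibitor. The change with hypoxia was 0.13 with the inhibitor (SE 0.34, interval -0.62 to 0.88, limma adjusted p = 0.93) and 0.02 without it (SE 0.34, interval -0.73 to 0.77, adjusted p = 0.991). With all replicate 3 arrays left out, the change with the inhibitor was 0.63 (adjusted p = 0.0534). The intervals leave room for changes of either sign, so they do not show that Sema3a stayed level.

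Sema3d, Sema3c and Sema3e are ligands with known roles in the developing heart and vessels: Sema3d in the patterning of pulmonary veins, Sema3c in the septation of the cardiac outflow tract and Sema3e, through Plxnd1, in keeping vessels out of the somites of the mouse. Sema3d was near background, detected on 0 of 3 arrays in hypoxia with inhibitor, 2 in hypoxia, 0 in normoxia with inhibitor and 1 in normoxia, with intensities of 7.23 to 36.7. Its changes with hypoxia were -0.07 with the inhibitor (SE 0.18, limma adjusted p = 0.93) and -0.09 without it (SE 0.18, adjusted p = 0.912), on values that lie at or under the detection limit on most arrays. Sema3c was detected on 0 of 12 arrays (-1.81 to 17.6) and Sema3e on 0 of 12 (-11.9 to 8.2), so neither was tested. Both were below the detection of their 1 probe, which sets no level for the transcript.

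Plxna2 is a receptor that pairs with neuropilins and also binds transmembrane semaphorins of class 6. Its intensity was 1470, 1420 and 726 in hypoxia with inhibitor, 1300, 1230 and 1520 in hypoxia, 1230, 1140 and 1710 in normoxia with inhibitor and 1220, 1200 and 1640 in normoxia. The third array was the highest in 3 of the groups and the lowest in hypoxia with inhibitor. The change with hypoxia was -0.26 with the inhibitor (SE 0.27, limma adjusted p = 0.769) and 0.05 without it (SE 0.27, adjusted p = 0.974). Without hypoxia with inhibitor 3 the first of these was 0.04 (adjusted p = 0.974), and without all replicate 3 arrays 0.22 (adjusted p = 0.147), so its sign rested on that array.

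Plxnd1 is the receptor of Sema3e in endothelial cells and takes part in the patterning of vessels and of the cardiac outflow tract. Its intensity was 492, 424 and 361 in hypoxia with inhibitor, 488, 465 and 509 in hypoxia, 458, 478 and 592 in normoxia with inhibitor and 641, 607 and 585 in normoxia. Without the inhibitor all 3 hypoxia arrays were lower than all 3 normoxia arrays, and with it the groups overlapped. The change was -0.28 with the inhibitor (SE 0.15, interval -0.61 to 0.05, limma adjusted p = 0.512) and -0.27 without it (SE 0.15, interval -0.60 to 0.06, adjusted p = 0.542). With all replicate 3 arrays left out, the changes were -0.06 with the inhibitor (adjusted p = 0.783) and -0.29 without it (adjusted p = 0.153). Averaged over the inhibitor it was -0.27 (SE 0.11, interval -0.50 to -0.04), which did not pass the test over all probes (limma adjusted p = 0.178) and stayed between -0.33 and -0.18 in 22 other settings, none of them past the test.

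For the inhibitor, no probe on the array was called in normoxia or in hypoxia (0% of 14599 each, limma), although 2.05% and 4.03% had an unadjusted p under 0.05. The counts among the 7 member probes at that unadjusted level were 0 in normoxia and 3 in hypoxia, both Sema3f probes and Sema3g. Even the change of Hey1 in normoxia, -1.88 (SE 0.30, limma adjusted p = 0.639), was not called. The lack of member calls therefore does not show that the inhibitor left the members level. With all arrays, the 7 member probes had negative changes in both comparisons, where the median of all probes was 0.00, but without the replicate 3 arrays the change of Sema3a in hypoxia was 0.14 (limma adjusted p = 0.856), that of Plxna2 in hypoxia 0.12 (adjusted p = 0.727) and that of Plxna2 in normoxia 0.01 (adjusted p = 0.983). Averaged over oxygen, 0.00685% of all probes were called, a single probe of Hey1, and none of the members was, with 3 of 7 under an unadjusted p of 0.05 against 4.34% of all probes. The interaction of oxygen and inhibitor likewise had 0% of all probes called, 1.8% under an unadjusted p of 0.05 and 0 members at either level.

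In hypoxia the Sema3g log2 signal averaged 5.62 ± 0.41 with inhibitor and 6.50 ± 0.41 without it, a change of -0.88 (SE 0.25, interval -1.42 to -0.33, limma adjusted p = 0.998). In normoxia it averaged 4.87 ± 0.17 with inhibitor, where no array detected the probe, and 5.25 ± 0.33 without it (adjusted p = 1). As fitted signals the change was -0.38 (interval -0.93 to 0.17), which includes no change, and the groups overlapped. Same-numbered arrays in hypoxia differed by -1.05, -1.48 and -0.09, and the log2 signal of all 3 arrays with inhibitor lay below the 3 without it. With all replicate 3 arrays left out, the change averaged over oxygen was -0.97 (adjusted p = 0.0319), against -0.63 (adjusted p = 0.96) with all arrays. Each group then holds 2 arrays.

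The inhibitor changes of Sema3f in hypoxia were -0.63 for the first probe (SE 0.29, limma adjusted p = 0.998) and -0.58 for the second (SE 0.26, adjusted p = 0.998). Without hypoxia with inhibitor 3 they were -0.17 and -0.18 (adjusted p = 1 for both). Plxnd1 had changes of -0.29 in hypoxia (SE 0.15, adjusted p = 0.998) and -0.28 in normoxia (SE 0.15, adjusted p = 1). In log2 signal its hypoxia groups did not overlap, at most 8.91 with inhibitor and at least 8.94 without it, but in intensity they did. The changes of Sema3a, Sema3d and Plxna2 lay between -0.32 and -0.01 with all arrays. The -0.32 of Plxna2 in hypoxia came from same-numbered differences of 0.13, 0.11 and -1.20, and without hypoxia with inhibitor 3 it was -0.02 (adjusted p = 1).

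**Figure D3:**
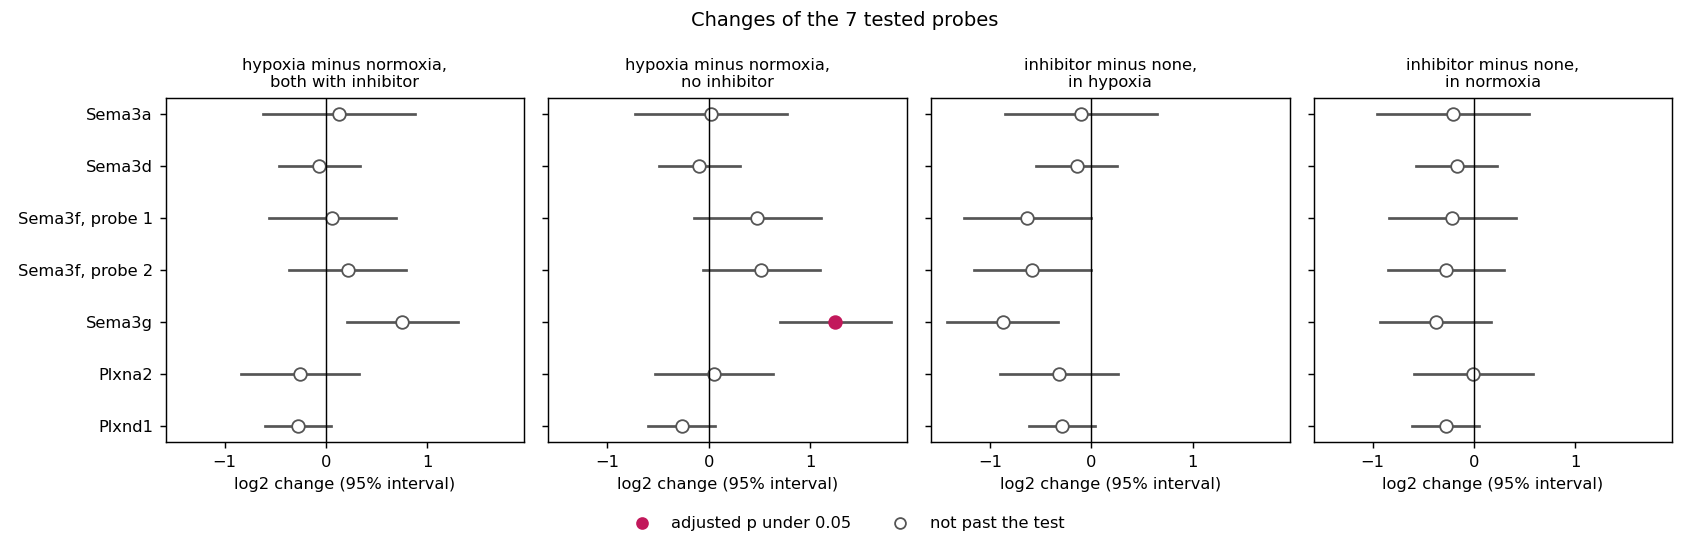
Log2 change (horizontal axis) of the 7 tested probes with its 95% interval, for hypoxia against normoxia with and without inhibitor and for the inhibitor against none in hypoxia and in normoxia; the filled point is past the test. Only Sema3g without inhibitor is filled, and with all arrays in the fit all 7 points lie below 0 in both panels for the inhibitor.

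Over the 12 arrays, each tested probe was set against all other named genes, and the 3 with the highest Pearson correlation are named. These correlations run over 4 groups and a shared replicate 3 and are descriptions. For Sema3g they were Sema7a (0.954), Htr2b (0.954) and Gja5 (0.935). Sema3g was detected on 7 of the 12 arrays, and Htr2b ran only from 4.88 to 5.81 in log2 signal. These correlations thus rest in part on values near background. Sema7a is a membrane-anchored semaphorin, Htr2b a serotonin receptor and Gja5 the gap junction protein of arterial endothelium. Gja5 averaged 7.08 in hypoxia with inhibitor, 10.05 in hypoxia, 5.64 in normoxia with inhibitor and 7.28 in normoxia on the log2 scale, and so had the same highest and lowest group as Sema3g.

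**Figure D4:**
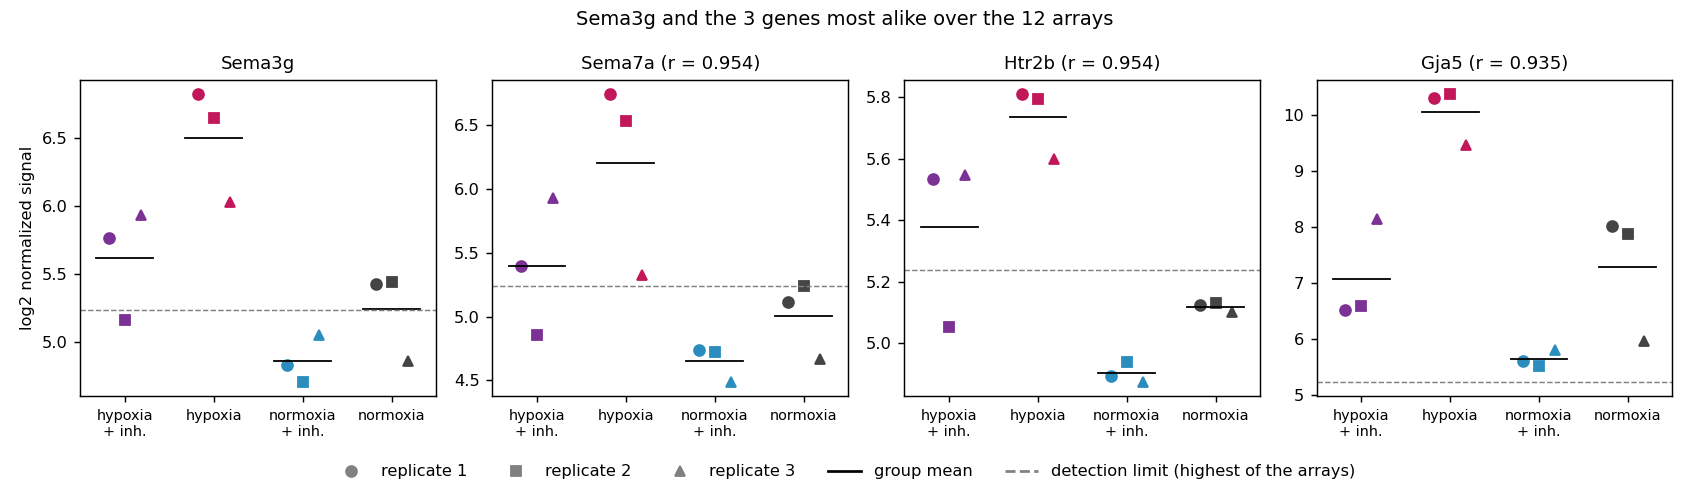
Log2 normalized signal (vertical axis) of Sema3g and of the 3 genes with the highest Pearson correlation to it over the 12 arrays, by group, with the group mean as a bar and the dashed line at the highest of the arrays' detection limits. In each panel the hypoxia group has the highest mean and normoxia with inhibitor the lowest.

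The other members had different neighbours, and none was a member or a neighbour of Sema3g. For Sema3a these were Fgd6, Sdcbp and Gng11 (0.928 to 0.938), for Plxna2 Prps1l3, Fam78a and Gusb (0.968 to 0.973), and for Plxnd1 Cds1, Gdpd5 and Rpl4 (0.929 to 0.939). The tested probes of Sema3f shared Fkbp1a and Hmgcs1 (0.947 to 0.974), next to Clic6 (0.959) for the first and Nfkbid (0.949) for the second. Those of Sema3d, near background, were Hnrnpul1, Pnn and Col25a1 (0.829 to 0.916).

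The rest of the pathway is given by lists, each gene standing for itself through the brightest of its tested probes, against a median change of -0.01 over all genes for low oxygen averaged over the inhibitor, the comparison in which 5.3% of all probes were called. The counts below are small and are to be read against that share. Of the other semaphorins, 8 of 14 were measured and 1 passed the test, Sema7a, which was higher in hypoxia by 0.97 (SE 0.25, limma adjusted p = 0.0427). Its call held in 8 of 22 other settings (all 22 between 0.55 and 1.19, adjusted p = 0.00241 to 0.112), and was lost on leaving out any single array but hypoxia 3 and hypoxia with inhibitor 2. Its probe was detected on 2, 3, 0 and 1 arrays of hypoxia with inhibitor, hypoxia, normoxia with inhibitor and normoxia. The list had a median of 0.04 with 5 of 8 above 0. Of the other plexins, 3 of 7 were measured (median 0.02) and none was called. Plxna1 and Plxna4, partners of neuropilins, were detected on 1 and 0 arrays and not tested, and the dim Plxna3 had changes of 0.24 with the inhibitor (adjusted p = 0.671) and -0.21 without it (adjusted p = 0.75).

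Among neuropilins and co-receptors, 7 of 11 were measured (median 0.01) and 1 was called, Nrp1, the receptor of Sema3a and co-receptor of Vegfa. Its intensity was 6070, 5510 and 4620 in hypoxia with inhibitor, 5020, 4480 and 5940 in hypoxia, 7230, 7000 and 7170 in normoxia with inhibitor and 7130, 6640 and 7330 in normoxia. In intensity all 6 hypoxia arrays were below all 6 normoxia arrays, and on the normalized log2 scale the third hypoxia array (12.70) overlapped the second normoxia array (12.67). These values are from the brighter of its tested probes. On the other, all 6 hypoxia arrays (at most 12.41) lay below all 6 normoxia arrays (at least 12.50) on the log2 scale. For the brighter probe the averaged log2 change was -0.45 (SE 0.11, limma adjusted p = 0.0338), made of -0.48 with the inhibitor (adjusted p = 0.225) and -0.43 without it (adjusted p = 0.277). The call held in 11 of 22 other settings, and over all 22 the change stayed between -0.53 and -0.40 and the adjusted p between 0.00456 and 0.0924. It was lost on leaving out any single array but hypoxia 3 and hypoxia with inhibitor 1. Without hypoxia with inhibitor 3 it was -0.41 (adjusted p = 0.0506).

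Nrp2, the receptor of Sema3f and Sema3g, had changes of 0.26 with the inhibitor (SE 0.24, limma adjusted p = 0.728) and 0.19 without it (SE 0.24, adjusted p = 0.846), and its groups overlapped. These values are from the brightest of its 3 tested probes. On the dimmer ones the group mean was slightly lower in hypoxia without the inhibitor and higher with it, and the groups overlapped too. Vegfa, which competes with Sema3a for Nrp1, had an averaged change of 0.73 (SE 0.20, adjusted p = 0.0539), short of the threshold. That change is from the brighter of its tested probes. On the dimmer one, all 6 hypoxia arrays (at least 7.60) lay above all 6 normoxia arrays (at most 7.44) on the log2 scale. Kdr, the main signalling receptor of Vegfa, had changes of -0.34 with the inhibitor (adjusted p = 0.541) and 0.35 without it (adjusted p = 0.533). Its probe was dim, at intensities of 22.1 to 54.4.

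Of the genes of plexin signalling, 25 of 37 were measured, with a median change of 0.15 and 17 of 25 above 0 on average over the inhibitor. Those called were Rnd2 and Limk2. Rnd2, a small GTPase of the Rnd group that binds plexins, averaged 8.01 in hypoxia with inhibitor, 8.71 in hypoxia, 7.32 in normoxia with inhibitor and 7.35 in normoxia on the log2 scale. Its change was 0.68 with the inhibitor (SE 0.25, limma adjusted p = 0.289) and 1.36 without it (SE 0.25, adjusted p = 0.0277). Averaged it was 1.02 (SE 0.18, adjusted p = 0.00692), past the test in 22 of 22 other settings. The call without inhibitor was lost on leaving out hypoxia 1 or 2 or normoxia 1 or 2, at changes of no less than 1.20 and adjusted p of up to 0.13, and with only the groups compared in the fit. Limk2, a kinase that acts on the actin-severing protein cofilin, was higher by 0.42 on average (SE 0.10, adjusted p = 0.0331), a call that held in 12 of 22 other settings (all 22 between 0.36 and 0.49, adjusted p = 0.0101 to 0.0977) and was lost on leaving out any single array but hypoxia 3, hypoxia with inhibitor 3 and normoxia with inhibitor 2. Of the 7 genes of semaphorin processing, such as the protease furin, 5 were measured (median -0.09) and none was called. No gene of these lists passed the test for the inhibitor.

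**Figure D5:**
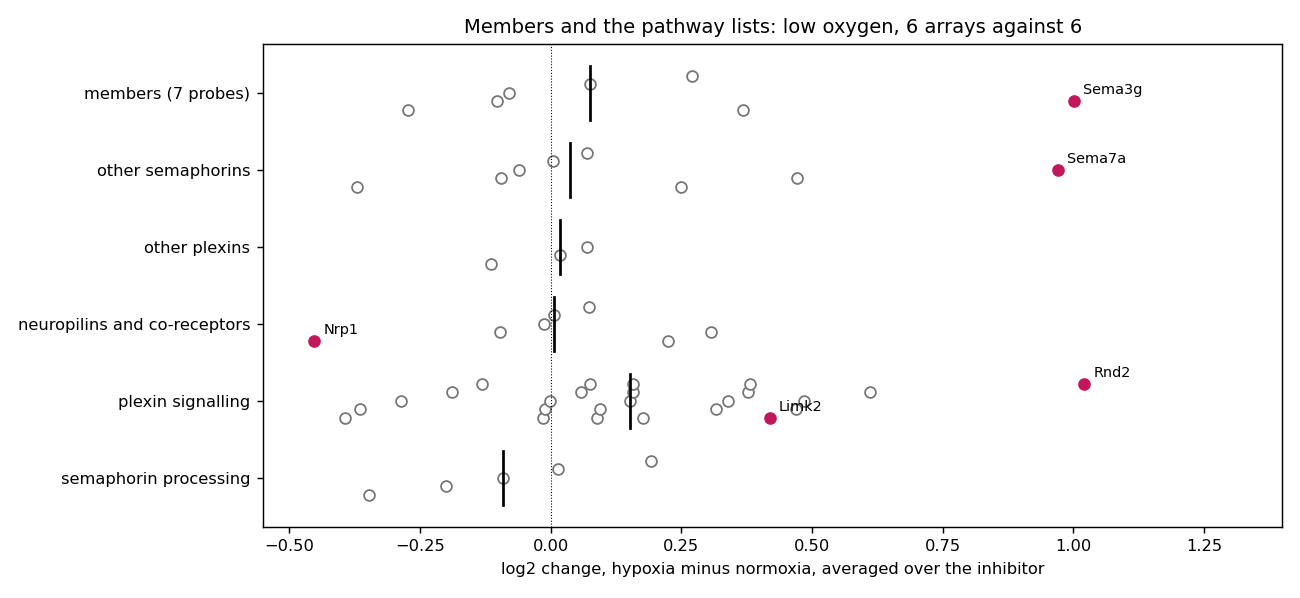
Log2 change of hypoxia against normoxia averaged over the inhibitor (horizontal axis, 6 arrays against 6) for the member probes and the genes of the 5 pathway lists, with the median as a bar and filled points past the test. Sema3g, Sema7a and Rnd2 lie near 1, Limk2 at 0.42 and Nrp1 at -0.45, and the medians lie between -0.09 and 0.15.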

How the data were processed

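RNA from 12 sorted samples was hybridised to mouse Illumina bead arrays. The bead intensity values were deposited by the authors after background subtraction and without normalization, which left 23.3% of them below 0, and were exported from BeadStudio, per the submitters' processing notes. A detection p-value stands beside each intensity in the deposited table, per the file headers. The authors also deposited a processed table of intensities with a floor of 20; how it was scaled is not stated by the labels or the headers, and it served as an alternative. Probes were named through the platform annotation, in which 23978 of 25697 probes have 1 gene symbol and 1719 have none.

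Intensities were corrected by normexp with the detection p-values, offset by 16, quantile normalized and put on the log2 scale with limma 3.58.1 in R 4.3.3. Probes detected (p under 0.05) on at least 3 of 12 arrays were kept, 14599 in all. One fit of the 4 group means (8 residual degrees of freedom) gave every comparison, with Benjamini-Hochberg adjustment over all kept probes and a threshold of 0.05, the averaged comparisons setting 6 arrays against 6. An effect averaged over the inhibitor or over oxygen is the mean of the effects within its levels. The fits were tested on simulated data. A fold given as "at least" sets a bright group against the lowest detected signal of each array, or the dim probe's own where higher. The number of arrays limits the precision. Figures were drawn with matplotlib 3.10.9 in Python 3.11.15.

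All members were described. Other genes were named where a pathway list called them, where they were among the 3 closest by Pearson correlation to a member, or as receptor partners and checks of the treatments; called markers of other cell types were named after their values were seen. The members, lists and rules were chosen with earlier results of these data known, and the settings rerun for Sema7a, Nrp1, Rnd2, Limk2, Egln3 and Hey1 were chosen after seeing the data. Alternatives were no background correction, a larger offset, no or median scaling, the processed table, no filter or a stricter one, another variance moderation, the mean of a gene's probes, only the groups compared, a replicate block, leaving out each array, and leaving out all replicate 3 arrays. The labels do not say what a replicate number shares. Deviations of same-numbered samples from their group means correlated at 0.302 to 0.58 for hypoxia against normoxia, 0.107 to 0.251 for the same with the inhibitor, 0.382 to 0.642 for the inhibitor in normoxia and 0.0275 to 0.0823 for the inhibitor in hypoxia, so by a limit of 0.1 the numbers pair the samples in all but the last. The chip could not be used as a block because the headers used here do not give it.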

Additional observations from a re-analysis of the deposited data

How the results depend on the processing

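Of the 7 tested member probes, 1 passed the test for hypoxia without the inhibitor, and 0 did with no background correction, with no normalization between arrays, with the authors' processed table, with no filter on dim probes or with only the groups compared. With all replicate 3 arrays left out the count was 3, and with single replicates left out it was 0 to 3. With the inhibitor it was 2 without all replicate 3 arrays and 0 to 2 with single replicates left out, against 0. Averaged over the inhibitor it was 3, and 1 to 3, against 1. For the inhibitor averaged over oxygen it was 1 without all replicate 3 arrays, against 0. The replicate block changed no member call (Sema3g 1.25 without the inhibitor, adjusted p = 0.0394), and moved the calls among all probes to 319 against 148 for hypoxia without the inhibitor, 258 against 125 with it, 1292 against 774 averaged and 0 against 1 for the averaged inhibitor. Over all settings these counts spanned 26 to 1234, 33 to 1477, 403 to 2788 and 0 to 94, the highest each time without all replicate 3 arrays, and the inhibitor counts 0 to 15 in normoxia, 0 to 39 in hypoxia and 0 to 1 for the interaction. Of 1106 values of single member probes under an alternative, 1044 kept their side of the threshold without moving past the replicate spread, 36 moved, 13 lost the call and 13 gained it. No called value changed sign, and 59 values that were not called did. The cause of these changes was not tested. Sema3d and Sema3g lie near background, where a larger offset lowers a change (Sema3g 0.79 without the inhibitor) and no background correction raises it (1.69).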
